A study of Rattus norvegicus with 18 samples.

Results

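Nanos3, Sox3, Lin28a, Epcam and Snap91 were taken as marker genes of spermatogonia, the mitotic germ cells at the base of the seminiferous tubule. Whether each of the 5 marks spermatogonia in these libraries was not tested. The genes were chosen by name, with earlier results of these arrays in view, and all probe sets annotated to them were taken. That gave 6 probe sets of the 31042 counted, and 5 of the 13807 genes that could be named. Snap91 had 2 probe sets and each of the others had 1. Because the genes were picked with their values known, the levels and folds that follow describe these libraries and are no test of the choice.

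All cells came from testes of 22-day-old rats, and each of the 9 populations was measured on 1 array of each of 2 types, called A and B here. Of the 7 germ cell populations, one had bound to laminin, a protein of the basement membrane, and one had failed to bind. The labels call both of these cultured but give no day. A further 4 germ cell populations had been kept on STO cells, a mouse embryonic fibroblast line used as a feeder layer, for 1, 5, 10 or 20 days. The seventh had been kept for 20 days on MSC1 cells, a mouse line derived from Sertoli cells, which are the somatic cells that surround germ cells in the tubule. The 2 somatic populations were interstitial cells, from the tissue between tubules, and tubular somatic cells. No strain, genotype, medium or growth factor is given in the labels, and no population was repeated. Folds between single libraries therefore have no error of their own, and no p-value is given. The labels do not state how the feeder cells were kept out of the RNA.

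Spermatogonia include a small pool of stem cells and their early progeny, called undifferentiated, and the later KIT-positive cells that go on to meiosis. Nanos3 encodes an RNA-binding zinc finger protein that germ cells need from the embryo onwards and that is found in undifferentiated spermatogonia of the adult. Sox3 is an X-linked HMG-box transcription factor gene that mouse spermatogonia need to move out of the undifferentiated state. LIN28A is an RNA-binding protein that blocks the maturation of the let-7 microRNAs. EPCAM is an adhesion molecule of epithelia that germ cells also carry. Snap91 encodes AP180, a clathrin assembly protein best known from synaptic vesicle recycling in neurons.

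Listed germ cell and Sertoli cell genes set the germ cell libraries apart from the somatic ones. Over 8 general germ cell genes the summed signal was 12562 to 30203 in the 7 germ cell libraries. It was 822 to 996 in the somatic ones. The sum of 17 Sertoli cell genes was 2182 to 3286 in the germ cell libraries. It was 18938 in the tubular somatic and 11935 in the interstitial fraction, and the purity of the fractions was not tested. The authors' scale factors were 0.391 to 1.51 for type A arrays and 1.05 to 4.01 for type B arrays. The 100 probe sets present on both types gave a standard deviation of 0.25 for a log2 fold on 1 array type, averaged over all pairs of populations. Neighbouring levels are called different below only where they differ by more than 2 such deviations, 1.40-fold. That error is one of array measurement alone and leaves out the spread between animals, cultures and amplifications. It was taken over all 100 shared probe sets and was not estimated separately for dim signals. Gapdh probe sets at both ends of the transcript give a sign of RNA length. Their 3'/5' ratio on type A was 14.7 to 29.7 in the 5 libraries from feeder cultures and 5.63 to 11.2 in the 4 others, and the ranges for type B were 15.0 to 27.1 and 5.33 to 16.7. Its part in the differences between feeder cultures and other libraries was not tested.

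The 5 genes did not share a single profile. Signals under 50 were taken as not measurable, so that 50 served as a floor, and a fold against a signal under it is a lower bound ("at least"). A difference counted as called if it was at least 3-fold and the higher signal was at least 250. In both somatic fractions all 6 probe sets lay under the floor. Of all probe sets 26.4% did so, and of those that reached 250 in a germ cell library 2.90% did so. Beyond that shared low signal, 4 patterns could be told apart. Nanos3 and Snap91 had their 3 highest signals in laminin-binding cells, on STO day 1 and on MSC1, with lower signals on STO day 5 and values under the floor on day 20. Sox3 was high in laminin-binding cells alone, and Epcam was present in all 7 germ cell libraries. Lin28a had its highest signals on STO days 5 and 10.

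**Figure D1:**
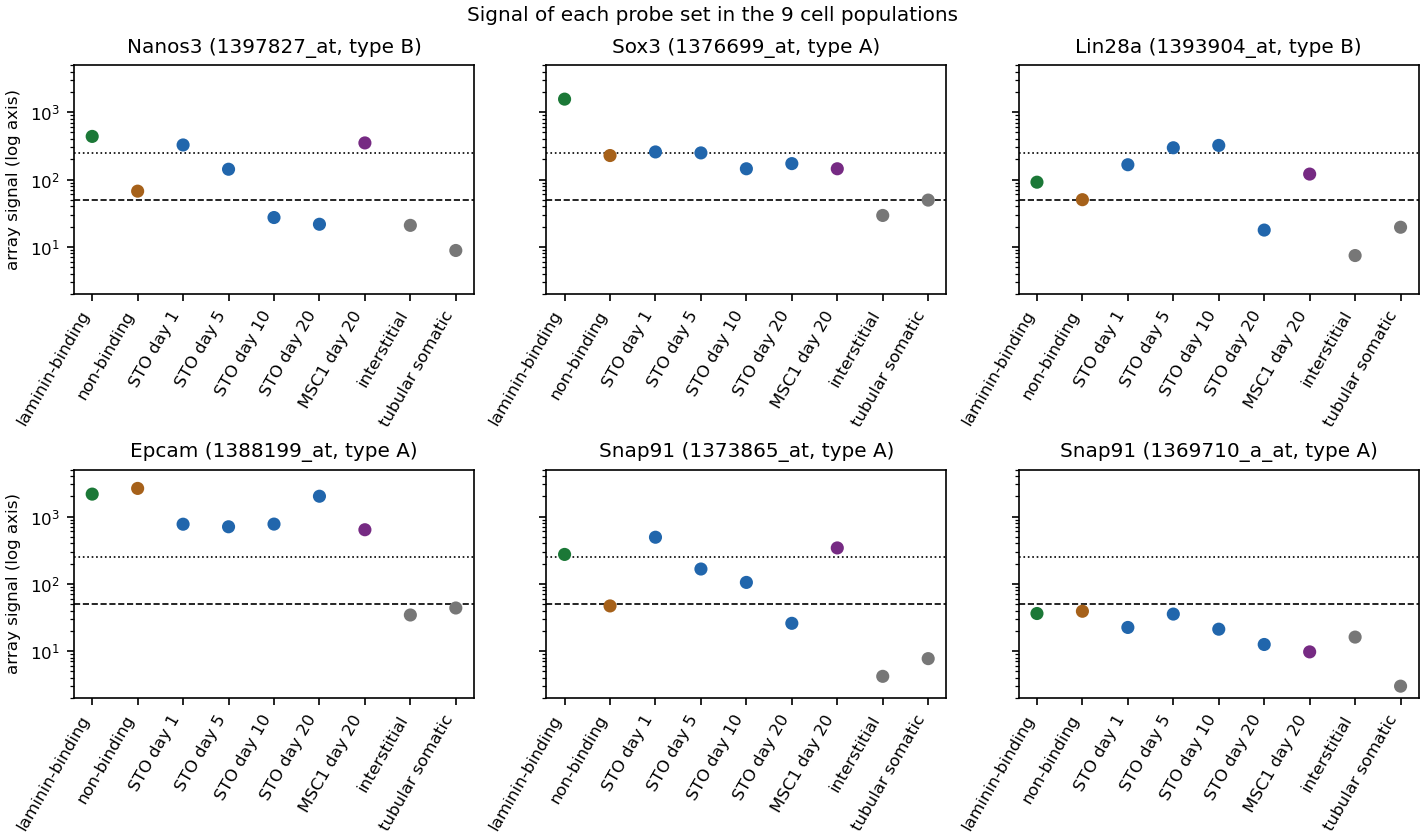
Array signal (log axis) of the 6 probe sets in each of the 9 cell populations, 1 array per point, with the floor of 50 dashed and the level of 250 dotted. Green marks laminin-binding cells, brown non-binding cells, blue the 4 STO days, purple MSC1 and grey the somatic fractions, where no probe set reached the floor.

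Nanos3 (gene 288909, chromosome 19 from 40889531 to 40893699 on the GRCr8 assembly) was read by 1 probe set on type B. Its signal was 437 in laminin-binding cells, 67.1 in non-binding cells, 326 on STO day 1, 142 on day 5, 27.2 on day 10, 21.6 on day 20 and 349.9 on MSC1. It was 20.8 in the interstitial and 8.8 in the tubular somatic fraction. Laminin-binding cells, MSC1 and STO day 1 formed the high group, and the neighbours within it differed by 1.25-fold and 1.07-fold, less than the array error. STO day 5 stood apart, 2.30-fold under day 1 and 2.12-fold over non-binding cells. Non-binding cells were 1.34-fold above the floor, and STO days 10 and 20 and the somatic fractions were all under it. Against these libraries 1.34-fold is a lower bound, so whether they differed by more than the array error cannot be told. On the STO feeders the signal was lower on day 5 than on day 1, and on days 10 and 20 it was under the floor, at least 6.53-fold below day 1. Before scaling the highest of the 9 values was that of STO day 1, at 211, with 113 on MSC1 and 109 in laminin-binding cells, so the order inside the high group depends on the scale factors.

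Snap91 (gene 65178, chromosome 8 from 96618039 to 96732763) was read by 2 probe sets on type A that disagreed. The brighter one read 273 in laminin-binding cells, 46.8 in non-binding cells, 492 on STO day 1, 166 on day 5, 105 on day 10, 25.8 on day 20 and 341 on MSC1. It read 4.2 in the interstitial and 7.7 in the tubular somatic fraction. The other was under the floor in all 9 libraries, from 3.0 in the tubular somatic fraction to 39.0 in non-binding cells. Everything said of Snap91 therefore rests on the brighter probe set. By that probe set STO day 1 was highest, 1.44-fold over MSC1, which was within the array error of laminin-binding cells at 1.25-fold. The next steps down, from laminin-binding cells to STO day 5 at 1.65-fold and from day 5 to day 10 at 1.58-fold, were larger than the array error. Its order before scaling began with the same 3 libraries in the same places. Below them day 10 stood over day 5, at 159 and 110, so the order of those days rests on the scale factors.

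Nanos3 and Snap91 were measured on different array types and still followed each other closely. Over the 9 populations the Pearson correlation of their floored log2 signals was 0.93, and over the 7 germ cell populations alone it was 0.90. The other 9 pairs of the 5 genes ranged from 0.23 to 0.78 over 9 populations and from -0.83 to 0.55 over 7. These are descriptions over libraries that share the germ cell or somatic origin, and the floor sets many of the low values equal.

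Sox3 (gene 679158, chromosome X from 144344892 to 144346971) was read by 1 probe set on type A. Its signal was 1567 in laminin-binding cells, 227 in non-binding cells, 257 on STO day 1, 249 on day 5, 144 on day 10, 172 on day 20 and 144 on MSC1. It was 29.2 in the interstitial and 49.4 in the tubular somatic fraction. Laminin-binding cells stood 6.10-fold above the next library, STO day 1, and had the highest value before scaling too. From STO day 1 down to MSC1 each library was within the array error of the next, with steps of at most 1.32-fold. These libraries were not all level, since STO day 1 was 1.78-fold over STO day 10 and over MSC1. The high level was thus seen in 1 library only, and neither STO nor MSC1 cultures carried it on any day sampled.

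Lin28a (gene 500562, chromosome 5 from 151510891 to 151527884) was read by 1 probe set on type B. Its signal was 91.2 in laminin-binding cells, 50.1 in non-binding cells, 166 on STO day 1, 296.5 on day 5, 321 on day 10, 17.7 on day 20 and 120 on MSC1. It was 7.4 in the interstitial and 19.5 in the tubular somatic fraction. STO days 10 and 5 were highest and differed by 1.08-fold. Day 5 was 1.79-fold over day 1, and between days 10 and 20 the signal was at least 6.43-fold lower. The level in laminin-binding cells was at the 39.4th percentile of its array, against the 78.0th on STO day 10. Before scaling STO day 10 remained highest at 219 and day 1 came second at 107, followed by day 5 at 77.3, so the order of days 1 and 5 rests on the scale factors.

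Epcam (gene 171577, chromosome 6 from 12633715 to 12649678) was read by 1 probe set on type A. Its signal was 2153 in laminin-binding cells, 2617 in non-binding cells, 768 on STO day 1, 704 on day 5, 771 on day 10, 2002 on day 20 and 636 on MSC1. It was 34.3 in the interstitial and 43.6 in the tubular somatic fraction. The germ cell libraries fell into a high set of 3, non-binding cells, laminin-binding cells and STO day 20, and a lower set of 4, STO days 1 to 10 and MSC1. Inside each set neighbours differed by at most 1.22-fold, and the gap between the sets was 2.60-fold. MSC1, the lowest of the 7, was still at least 12.7-fold over both somatic fractions. Over the 7 germ cell populations the correlation of Epcam with Lin28a was -0.83, the lowest of the 10 pairs, and with Snap91 it was -0.59.

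**Figure D2:**
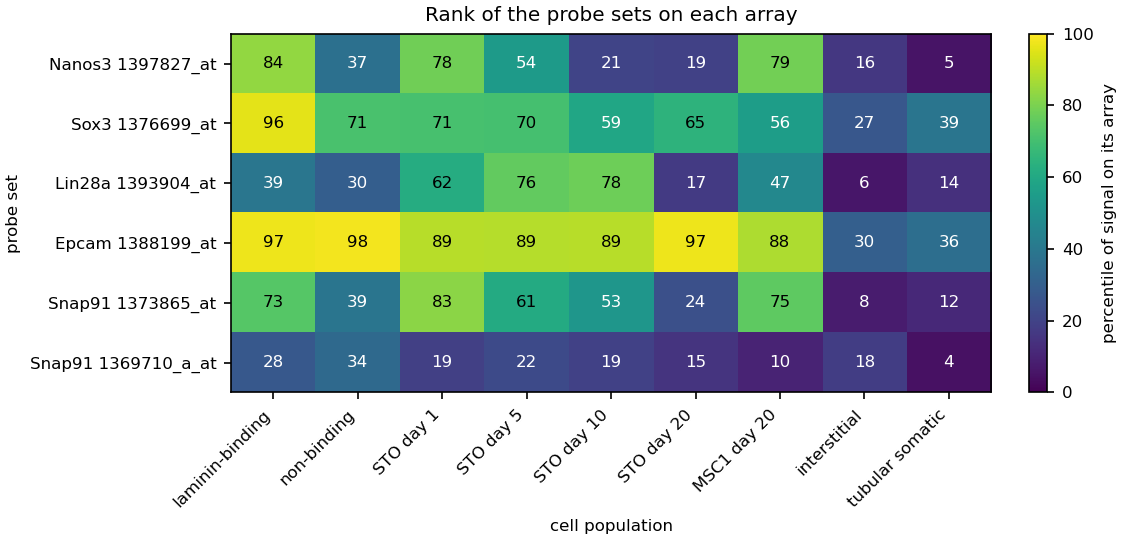
Percentile of each probe set among the counted probe sets of the same array, for the 6 probe sets (rows) and 9 populations (columns), a measure that the scaling of an array cannot change. Epcam ranked at the 87.5th percentile or higher in all germ cell libraries, while Sox3 reached the 95.8th in laminin-binding cells and lay between the 55.7th and the 71.4th in the other 6.

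The promoters of 4 of the 5 genes were in the RefSeq table for GRCr8. The 250 bases before the start of Sox3, Lin28a and Epcam are shown because these genes had different profiles across the germ cell libraries. That of Nanos3 begins inside the annotated gene and is described without its letters. Capitals mark 3 short core promoter motifs on either strand, the TATA box TATANA, the CCAAT box CCAAT and the GC box GGGCGG, where N is any base.
Sox3, chrX:144346972-144347221, minus strand: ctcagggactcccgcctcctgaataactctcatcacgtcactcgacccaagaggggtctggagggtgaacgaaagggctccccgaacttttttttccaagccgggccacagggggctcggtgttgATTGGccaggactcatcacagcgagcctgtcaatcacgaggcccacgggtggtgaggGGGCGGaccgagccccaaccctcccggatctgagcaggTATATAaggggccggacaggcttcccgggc
Lin28a, chr5:151527885-151528134, minus strand: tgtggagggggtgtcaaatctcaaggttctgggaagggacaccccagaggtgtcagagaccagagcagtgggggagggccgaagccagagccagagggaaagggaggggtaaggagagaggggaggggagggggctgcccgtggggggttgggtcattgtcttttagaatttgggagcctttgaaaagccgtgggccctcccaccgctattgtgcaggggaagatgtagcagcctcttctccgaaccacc
Epcam, chr6:12649679-12649928, minus strand: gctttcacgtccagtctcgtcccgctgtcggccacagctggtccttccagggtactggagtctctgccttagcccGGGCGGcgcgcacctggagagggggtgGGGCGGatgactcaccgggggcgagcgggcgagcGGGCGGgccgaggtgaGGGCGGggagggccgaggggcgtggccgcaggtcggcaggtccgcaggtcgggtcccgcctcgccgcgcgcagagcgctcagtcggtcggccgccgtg

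These 3 windows differed in make-up. Sox3 had 1 match to each motif, with the TATA box match beginning 30 bases before the start. Epcam had 4 GC box matches and none to the other 2 motifs, and Lin28a and Nanos3 had no match to any of them. In 33465 promoter windows of the same length, 24.2% held the TATA box letters, 34.0% the CCAAT box and 30.5% the GC box. The GC content was 75.6% for Epcam, 62.4% for Sox3, 60.4% for Lin28a and 58.4% for Nanos3, against a median of 51.2%. Epcam had 33 CG dinucleotides, Sox3 15 and Lin28a 5, the median, and the Nanos3 window had 0. Of 4 further motifs searched on both strands, the E box CANNTG matched Nanos3 once and Epcam at 2 places and is found in 65.5% of windows. The SOX-type site ACAAAG (16.3% of windows), the ETS site CCGGAAG (7.27%) and the forkhead site GTAAACA (3.22%) matched none of the 4. The E box can overlap the other motifs, and a match is a run of letters and not a shown binding site.

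The comparison of laminin-binding with non-binding cells asks which transcripts go with the cells that attach to basement membrane protein. Sox3 was 6.90-fold higher in binding cells (1567 against 227) and Nanos3 6.52-fold higher (437 against 67.1), and Snap91 was at least 5.46-fold higher (273 against 46.8). Lin28a was 1.82-fold higher, under the threshold and over the array error of 1.34-fold for this pair, and Epcam was 1.22-fold lower, within that error. Before scaling Lin28a read 22.7 in binding and 23.7 in non-binding cells, so its fold rests on the scale factors. The log2 fold of Lin28a was 0.86 as deposited, 0.57 after quantile normalization and 0 with the floor at 100. In all 3 of the 6 probe sets were called higher and 0 lower, where 3.65% of all probe sets were called higher and 1186 of the 31042 lower. The genes were chosen with this contrast known, so the share is given for scale only. Scaling to a common 75th percentile gave 917 higher and 1419 lower over all probe sets in place of 1132 and 1186. With the floor at 100 Snap91 was no longer called. In bulk RNA, fewer cells that carry a transcript cannot be told apart from less of it per cell, here and in each comparison below.

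Many listed spermatocyte transcripts were lower in the binding library. Of 10 measured genes in a list for pachytene spermatocytes and later stages 8 were lower in binding cells, and the summed signal of the 12 listed genes on the arrays was 1308 against 19983. Of 9 meiotic prophase genes 4 were lower and 0 higher, with a median log2 fold of -1.53 against 0.21 for all genes. Among the lower ones was Spo11, which makes the DNA breaks of recombination, with signals of 14.5 and 2417. Tex15 and Syce3 of that list went the other way without a call, at 6778 against 3681 and 508 against 452. How far the share of spermatocytes sets the folds of Nanos3, Sox3 and Snap91 was not tested. Epcam, at 2153 and 2617, was nearly level across the same pair.

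Against the somatic fractions, laminin-binding cells carried at least 43.1-fold more Epcam, at least 31.3-fold more Sox3, at least 8.75-fold more Nanos3 and at least 5.46-fold more Snap91, the same bound for both fractions since both were under the floor. Lin28a was at least 1.82-fold higher and was not called, its own signal being 91.2. Thus 4 of 6 probe sets were called higher than in both fractions, where 3.31% of all probe sets were, and 0 lower, against 842 of all 31042. Snap91 lost its call with a floor of 100. Between the tubular somatic and the interstitial fraction none of the 6 could be given a fold, while 789 of all 31042 probe sets were called higher in tubular cells and 983 lower.

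On the STO feeders Nanos3 and Snap91 were lower on day 20 than on day 1, by at least 6.53-fold and at least 9.83-fold. Lin28a was at least 3.32-fold lower (166 against 17.7) but did not reach 250 on either side, and Sox3 was 1.49-fold lower. Epcam was 2.61-fold higher, under the threshold. In all 2 of 6 probe sets were called lower, where 2.64% of all probe sets were, and 0 higher, where 621 of 31042 were. The days on which the signals went down differed between the genes. Nanos3 went from 142 on day 5 to under the floor on day 10. Lin28a was high on days 5 and 10 and under the floor on day 20. Snap91 was lower at each sampled day, but its order between days 5 and 10 rests on the scale factors. Epcam was level from day 1 to day 10, at 704 to 771, and its 2.60-fold step fell between days 10 and 20.

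Other transcripts differed between STO day 20 and day 1 as well. Of 9 meiotic prophase genes 6 were higher on day 20 and 0 lower, with a median log2 fold of 1.75 against -0.11 for all genes. The summed signal of the list was 25716 against 17805. Tex15, which made up most of the day 1 sum, went the other way without a call, at 8349 on day 20 and 13775 on day 1. Of 13 measured genes in the fibroblast and matrix list of 15, 4 were higher and 1 lower, and the sum over the list was 7621 on day 20, 5400 on day 1, 2754 on day 5 and 3910 on day 10, against 1579 in laminin-binding and 1852 in non-binding cells. The somatic fractions had sums of 11441 and 35226. The part of feeder or other somatic RNA in the lower signals of day 20 was not tested. The sum over 8 general germ cell genes was 20028 on day 20 and 21038 on day 1, but the genes did not move together. Of the 8, 2 were called higher on day 20 and 0 lower, Tex101 at 3.69-fold and the meiotic gene Sycp3 at 3.37-fold. Without a call, Tdrd1 read 9458 on day 1 and 6919 on day 20, and Piwil2 1747 and 595. Whether the share of germ cells was level was not tested.

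MSC1 feeders on day 20 differed from STO feeders on the same day for 3 of the 5 genes. Nanos3 was at least 6.998-fold higher on MSC1 (349.9 against 21.6) and Snap91 at least 6.82-fold higher (341 against 25.8), while Epcam was 3.15-fold lower (636 against 2002). Sox3 was 1.19-fold lower, within the array error of 1.46-fold for this pair, and Lin28a at least 2.41-fold higher without a call. That made 2 of 6 called higher, where 2.83% of all probe sets were, and 1 lower, where 2.34% were. After quantile normalization Epcam was at -1.56 on the log2 scale and lost its call. Scaling to a common 75th percentile gave a split over all probe sets of 655 higher and 990 lower in place of 878 and 727, and still 2 members higher and 1 lower.

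Set beside laminin-binding cells, the MSC1 library had much the same Nanos3 and Snap91 but not the same Sox3. Nanos3 was 1.25-fold lower on MSC1 and Snap91 1.25-fold higher, both within the array error, whereas Sox3 was 10.9-fold lower and Epcam 3.39-fold lower. The sum of the fibroblast and matrix list was 7907 on MSC1, that of the Sertoli list 3286 and that of the general germ cell list 17930. For Sertoli genes the sum was 2384 on STO day 20 and 3211 in laminin-binding cells. On MSC1 against STO at day 20, 1 of 14 measured Sertoli genes was called higher and 0 lower. That gene was Cldn11, a tight junction gene of Sertoli cells, at 11.1-fold. The median log2 fold of the 14 was 0.67, against 0.23 for all genes. Cldn11 read 616 on MSC1 and 637 in laminin-binding cells. Rat probe sets may also read mouse transcripts of the feeders, and this was not tested.

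The step from laminin-binding cells to the first day on STO separated Sox3 from the rest. Sox3 was 6.10-fold lower on day 1, while Nanos3 was 1.34-fold lower, within the array error of 1.47-fold for this pair. Lin28a was 1.82-fold and Snap91 1.80-fold higher, and Epcam was 2.80-fold lower, under the threshold. Only Sox3 was called, 1 of 6 lower, where 1.24% of all probe sets were called lower and 451 of 31042 higher. After scaling to a common 75th percentile Epcam was called too, at -1.59 on the log2 scale. The Gapdh ratio on type A was 7.07 in laminin-binding cells and 20.7 on STO day 1, and its part in these differences was not tested. Whether the binding cells were the ones placed on feeders is not stated in the labels.

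**Figure D3:**
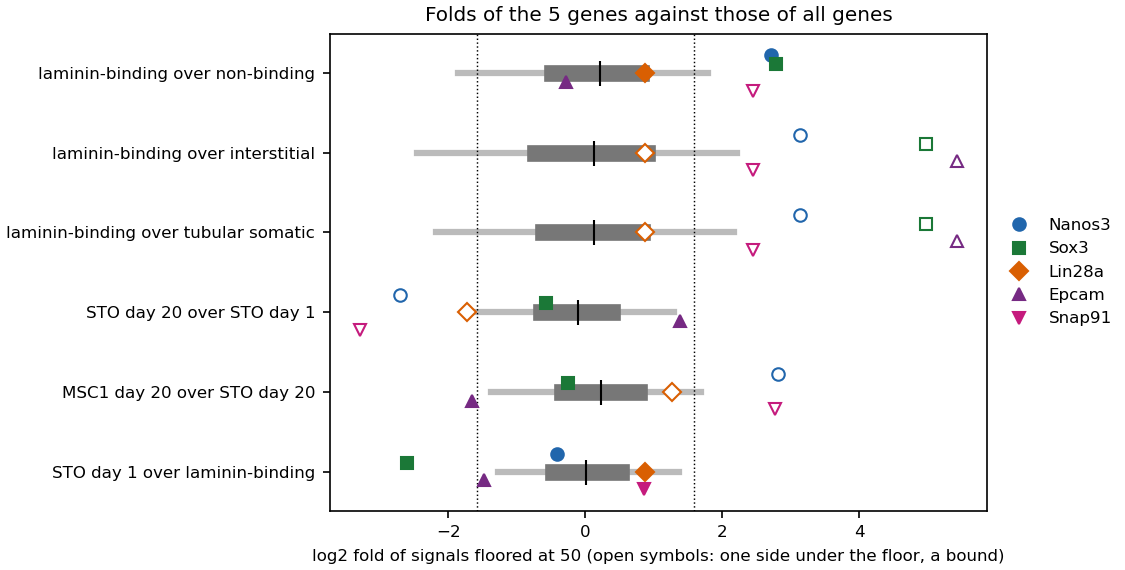
Log2 fold of the 5 genes, each by its brightest probe set, in 6 pairs of libraries (rows), over the spread of all measured genes, with the thick bar spanning the 25th to 75th and the thin bar the 5th to 95th percentile and the tick at the median. Open symbols are bounds and dotted lines mark 3-fold. Nanos3 and Snap91 lie past the dotted lines on the same side in the first 5 rows, and Sox3 is the only symbol past them in the row of STO day 1 over laminin-binding cells.

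Other genes of undifferentiated spermatogonia were read from a list that left the 5 out. Of its 27 genes 19 were on the arrays, and Zbtb16, Sall4, Nanos2 and 5 more were not matched to a probe set. In laminin-binding against non-binding cells 3 of 15 measured genes were called higher and 0 lower, with Ret, the signalling subunit of the GDNF receptor, at 8.10-fold, the transcription factor gene Foxo1 at 3.95-fold and the repressor gene Bcl6b at 3.21-fold. The median log2 fold of the 15 was 1.21, against 0.21 for all 10977 genes measured in this pair. On STO day 20 against day 1, 4 of 15 were lower and 0 higher, namely Ret, the POU factor gene Pou3f1, the GDNF-binding receptor gene Gfra1 and Bcl6b, with a median of -0.90 against -0.11 for all genes. On MSC1 against STO at day 20, 3 of 16 were higher, Ret, Gfra1 and Bcl6b, with a median of 0.97 against 0.23. In both these pairs Nanos3 and Snap91 lay on the same side as the called genes of the list.

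Nanos proteins act with Pumilio proteins and the CCR4-NOT deadenylase complex, which shortens the tails of messenger RNAs. Of the 10 genes of that list on the arrays, 0 were called in either direction on STO day 20 against day 1 or on MSC1 against STO. Between laminin-binding and non-binding cells 2 were lower, the deadenylase genes Cnot7, at least 6.81-fold, and Cnot6 at 3.14-fold, and 0 were higher, with a median of -0.62 against 0.21 for all genes. The signal of Pum2, a Pumilio gene, was 1254 in binding and 2182 in non-binding cells and was not called. Nanos1 and Nanos2 had no probe set.

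Of the other Sox genes 14 were on the arrays, and their values differed from those of Sox3. In laminin-binding against non-binding cells 0 of the 8 measured genes were called. Sox2, of the same SoxB1 group, was under the floor in all 9 libraries, with signals of 2.3 to 22.7. Sox13 read 198 in binding cells, 346 on STO day 1, 25.1 on day 20 and 349.9 on MSC1, so that it was at least 6.91-fold lower on day 20 than on day 1 and at least 6.998-fold higher on MSC1 than on STO. Sox4 read 263 in binding and 115 in non-binding cells. Sox30 read 446 and 277, and 422 in the tubular somatic fraction.

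LIN28A acts on let-7, and the list of let-7 targets and processing genes held 17 genes on the arrays. In laminin-binding against non-binding cells 4 of 15 measured genes were higher and 0 lower, with the DNA-binding gene Arid3a at 9.61-fold, the mRNA-binding gene Igf2bp2 at 7.82-fold, the cyclin gene Ccnd2 at 3.76-fold and Arid3b at 3.41-fold. The median log2 fold of the 15 was 0.28, close to the 0.21 of all genes. On STO day 20 against day 1, 4 of 14 were lower and 0 higher, namely Igf2bp1 at least 8.47-fold, Igf2bp2 at 7.31-fold, the oncogene Mycn at least 5.36-fold and Arid3b at 3.27-fold. The median of that list was -1.01 there, and for all genes -0.11. The called genes had other time courses than Lin28a on STO. Igf2bp2 read 1618, 898, 486 and 221 on days 1, 5, 10 and 20, and Igf2bp1 read 423, 411, 251 and 33.6, while Lin28a was highest on days 5 and 10. Against both somatic fractions 6 of 16 were higher in laminin-binding cells, led by Igf2bp3 at 17.7-fold and Igf2bp1 at least 11.3-fold, with a median of 0.61 against 0.09. The let-7 microRNAs themselves were not measured.

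Genes of epithelial adhesion were called on the side of Epcam in some pairs and on the other side in others. Of 23 on the arrays, 2 of 19 measured were higher in laminin-binding cells than in both somatic fractions, Spint1, a membrane protease inhibitor gene, at 3.28-fold and the splicing factor gene Esrp1 at 3.23-fold. The median log2 fold of the 19 was -0.30, against 0.09 for all genes. On STO day 1 against laminin-binding cells, where Epcam was 2.80-fold lower without a call, 2 of 17 were lower and 0 higher, Cldn11 at 7.21-fold and F11r, a junctional adhesion molecule gene, at 3.25-fold, with a median of 0.04 against 0.01. Claudin 7, a binding partner of EPCAM in epithelia, was under the floor in all 9 libraries by the probe set of Cldn7, at 2.3 to 20.1, and so was E-cadherin except on STO day 5 and MSC1, where Cdh1 read 60.3 and 51.1. On MSC1 against STO at day 20, where Epcam was lower, 4 of 17 were higher and 0 lower, led by Esrp1 (2135 against 119) and Cldn11, with Cldn4 at least 7.55-fold, and the median was 0.72 against 0.23. On STO day 20 against day 1, 3 of 16 were lower and 0 higher, namely Esrp1, Ocln and Spint1, with a median of -0.44 against -0.11, while Epcam was 2.61-fold higher without a call.

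Clathrin and synaptic vesicle genes were called in both directions across the pairs that were called for Snap91. Of 21 measured between laminin-binding and non-binding cells, 1 was higher, Hip1 at 4.15-fold, and 3 were lower, among them the phosphatase gene Synj1 at 4.12-fold and the adaptor gene Eps15 at 4.07-fold, with a median log2 fold of 0.16 against 0.21 for all genes. On STO day 20 against day 1, 0 of 21 were lower and 1 was higher, Synj1 at 4.76-fold, with signals of 461 and 2197, and the median was -0.30 against -0.11. On MSC1 against STO at day 20, 2 of 23 were higher, the side of Snap91, and 0 lower, Bin1 at least 7.15-fold and Hip1 at 3.55-fold, with a median of 0.34 against 0.23. Vamp2, the gene of the synaptic vesicle protein synaptobrevin that AP180 helps to retrieve, read 47.1 to 85.0 in the 9 libraries, near the floor throughout.

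Among 8534 named genes that reached 250 somewhere, those most like each of the 5 were found by the Pearson correlation of floored log2 signals over the 9 populations. For Nanos3 these were Urah (0.96), Rbfox3 (0.95) and Igfbpl1 (0.95). For Snap91 they were Ret (0.97), Rbfox3 (0.96) and Nr1d1 (0.96), so Rbfox3 stood in both sets. Its signal was 576 in laminin-binding cells, 35.5 in non-binding cells, 466 on STO day 1, 3.1 on STO day 20 and 434 on MSC1. For Sox3 they were Zfp428 (0.97), Msto1 (0.95) and Dtd1 (0.95), and Zfp428 read 1178 in laminin-binding cells and at most 202 in the other 8 libraries.

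For Lin28a the 3 were Ogfod1 (0.99), Fam8a1 (0.98) and Nus1 (0.97). Ogfod1 read 186, 209, 271 and 22.9 on STO days 1, 5, 10 and 20. For Epcam they were Pgm2l1 (0.99), Zbtb44 (0.99) and Clba1 (0.98). Pgm2l1 read 4463 in laminin-binding and 4216 in non-binding cells and 4285 on STO day 20, with 1660 on MSC1 and 430.2 and 347 in the somatic fractions. The mean of the 5 standardised profiles was most like Meaf6 and Krt12 (0.98 each), Kansl1, Zdhhc23 and Rnf166 (0.98), and Cbx2, Pou2f2 and Rtn1 (0.97). With rank correlations, or with the 7 germ cell populations alone, 1 of these 8, Krt12, was among the first 8. Of the 15 places named for the 5 genes singly, 1 stayed with rank correlations, that of Ogfod1 for Lin28a, and 0 stayed with the 7 germ cell populations alone. For Snap91 the rank correlation named Cldn4, Meox1 and Bcl6b in place of Ret, Rbfox3 and Nr1d1. The named genes therefore depend on the measure of likeness and on the somatic fractions. That mean pools unlike profiles, and with 9 points many genes correlate highly.

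**Figure D4:**
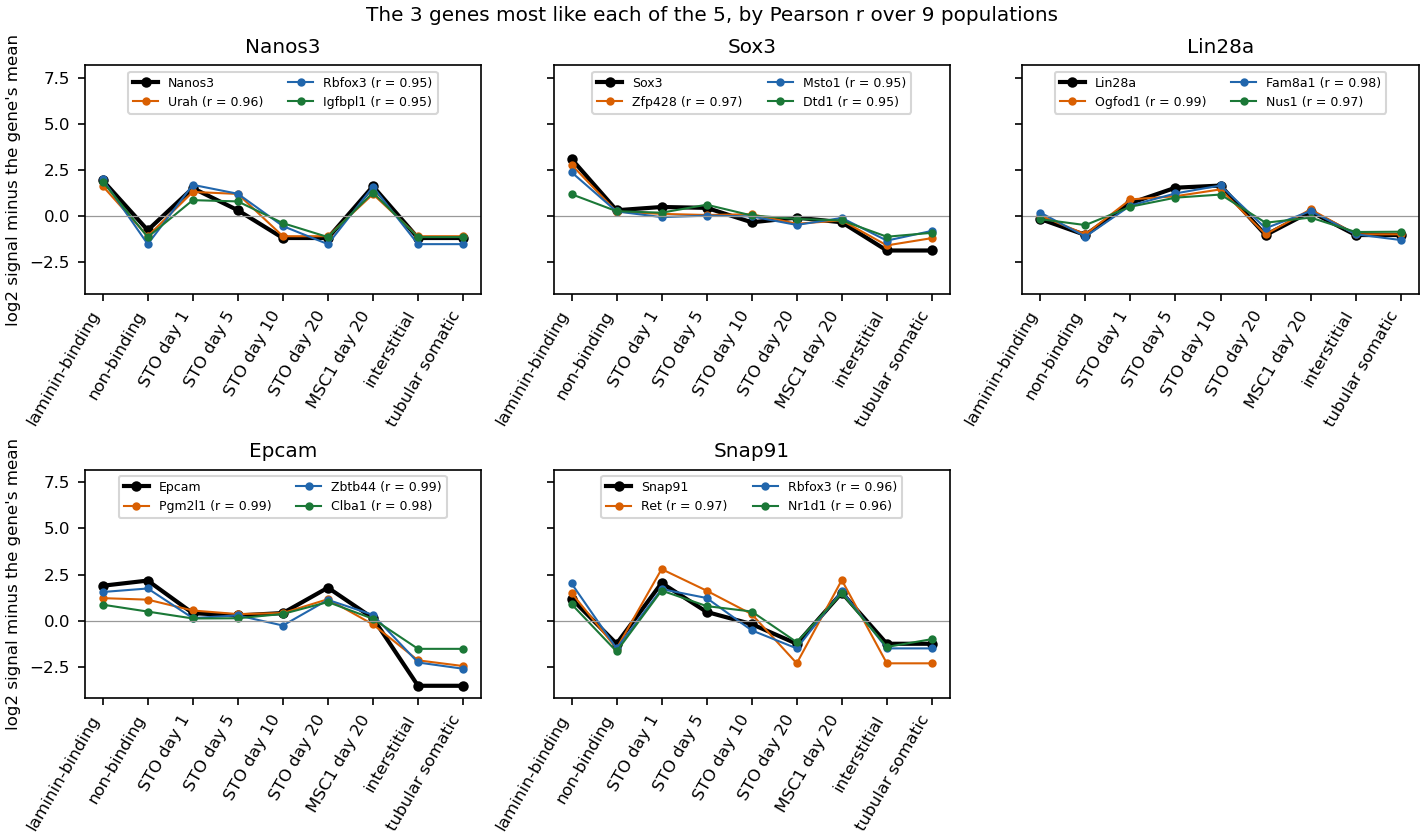
Log2 signal, floored at 50 and set against each gene's own mean, for the 5 genes (black) and the 3 most similar genes of each (colours, with r over 9 populations). Nanos3 and Snap91 and their neighbours are high in laminin-binding cells, on STO day 1 and on MSC1, and Urah and Igfbpl1 are nearly as high on STO day 5 as on day 1. The peaks of the Sox3 set lie in laminin-binding cells, those of the Lin28a set on STO days 5 and 10, and those of the Epcam set in both laminin fractions and on STO day 20.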

How the data were processed

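The deposited values are array intensities, 1 signal per probe set on a linear scale. Per the labels' protocols, the authors amplified 50 ng of total RNA in 2 rounds, used a Tau of 0.015 for detection calls, which were not used here, and scaled each array to an average of 250. The software, its version and the background treatment: not given in the sources used here. Probe sets were named from the platform annotation where it gave 1 gene (12789 on type A and 7570 on type B), updated by gene ID to RefSeq on GRCr8. Leaving out 57 control probe sets per type and counting 100 shared ones on type A left 31042. For a listed gene with several probe sets the brightest was used, from type A where it had one.

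Signals were floored at 50 and taken to log2 (Python 3.11.15, numpy 2.4.6, pandas 2.3.3). The calls were tested on simulated data, with large changes planted only in bright probe sets and noise of the size of the array error alone. Changes in probe sets as dim as those of Nanos3, Lin28a and Snap91 were not simulated. Nor was the spread between animals, cultures and amplifications. The members and lists were chosen with earlier results of these data known. Listed genes were named where called, at most 6 per list and comparison, and similar genes as the first 3 per member and 8 for the mean. Alternatives were floors of 25 and 100, 2 other scalings, folds of 2 and 5, a minimum of 100, the mean over probe sets and other correlations.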

Additional observations from a re-analysis of the deposited data

How the results depend on the processing

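The count of called member probe sets stayed within 1.5 times its value under every alternative in 5 of the 6 comparisons. For STO day 1 against laminin-binding cells it was 2 in place of 1 after scaling to a common 75th percentile and 2 with a fold threshold of 2, Epcam being added. On STO day 20 against day 1 a fold threshold of 2 also added Epcam, in the opposite direction to the other calls. The member probe sets called there were then 1 higher and 2 lower. Of 126 recomputed log2 folds of single genes, 92 moved by less than the array error of 0.25, 34 moved by more and none that was called changed sign. The 126 include folds between the somatic fractions, most of which the floor holds at 0, so that part of the stability was fixed in advance. Most of those that moved, 25, did so with the floor, as folds against a signal under the floor are bounds. The mean over both Snap91 probe sets brought its log2 fold in laminin-binding over non-binding cells from 2.45 to 1.22. The median log2 fold of all genes between these cells was 0.21 as deposited, 0.11 with the common 75th percentile and 0.06 after quantile normalization, and on MSC1 against STO day 20 it was 0.23, 0.10 and 0.04. No paired analysis was possible because each population had 1 array per type and the labels give no replicate numbers. No library could be left out for the same reason.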
